A study of Mus musculus with 55 samples.

Results

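The genes described here build and modify chromatin and chromosomes: condensin subunits, linker histones, a histone chaperone, high mobility group proteins, lysine methyltransferases and demethylases, a histone deacetylase, chromatin remodellers and readers, PR domain zinc finger proteins and a nuclear lamin. They were chosen by gene name, with a fixed list of name stems applied to both RNA-seq tables, and the rule used no value of a gene. Earlier results of these data were known when the genes were chosen. The rule found 31 of the 4113 listed genes, of which 29 of 3900 were in the table for TCPOBOP-treated Setd8-LKO livers and 4 of 719 in the table for TCPOBOP-treated wild type livers, with Asf1b and Hells in both. In the whole mouse annotation (GENCODE M21) 301 gene names match the rule, and both tables hold only genes that the authors selected as changed in the same contrast, so that the other matching genes are without values here.

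Whole livers of male C57Bl6 mice, 45 to 50 days old, were profiled. The RNA groups were 5 untreated wild type (WT) livers, 5 WT livers taken 24 h after an injection of TCPOBOP at 3 mg/kg, and 4 livers of Setd8 lox/lox-AlbCre mice (Setd8-LKO) given the same treatment. TCPOBOP is an agonist of the nuclear receptor CAR and a mitogen for hepatocytes. In Setd8-LKO mice the Albumin promoter drives Cre in hepatocytes and removes a floxed exon of Setd8, while the other cells of the liver keep the gene. Genotype and treatment change together between Setd8-LKO and untreated WT livers, so their effects cannot be told apart in that comparison. CTCF ChIP-seq (4 WT and 2 Setd8-LKO libraries), Smc3 ChIP-seq (3 and 2), H3K27ac ChIP-seq (3 and 3), ATAC-seq (3 and 5) and CUT&Tag for Lamin A/C (4 and 4) and H4K20me3 (2 and 2) compared untreated WT with TCPOBOP-treated Setd8-LKO livers, with 1 peak list per group. The labels of the 4 WT Lamin A/C libraries repeat replicate numbers 1 and 2, so that they may come from 2 livers.

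DNA in the nucleus is wound on core histones, bound between nucleosomes by linker histones (H1), and shaped further by ring complexes. Condensin, made of the ATPases Smc2 and Smc4 with Ncap subunits, compacts chromosomes for mitosis, whereas cohesin, whose ring holds Smc3, extrudes loops that stop at sites bound by CTCF. Setd8, listed as Kmt5a, places the single methyl group on lysine 20 of histone H4. H3K27ac marks active promoters and enhancers. Most hepatocytes of the adult liver are quiescent, and the machinery for chromosome duplication and condensation is at low levels in them.

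Summed raw counts over the listed genes were 11238950 to 12780869 per untreated WT library and 5734065 to 8231255 per Setd8-LKO library in the Setd8-LKO table, and 1389901 to 1849046 and 2609310 to 3706582 per untreated and treated library in the WT TCPOBOP table. The full library depth is not known from these tables. The library numbers in the column headers fall into 2 series, called run A and run B here. Untreated WT libraries 1 and 2 and Setd8-LKO libraries 1 to 3 are from run B, untreated WT 3 to 5 and Setd8-LKO 4 from run A, and in treated WT libraries 1 to 3 are from run A and 4 and 5 from run B. Per-library values are given as normalized counts in replicate order. A call needed an adjusted p below 0.05 in edgeR's quasi-likelihood test and a change of 1 or more, up or down, on the log2 scale. After ± stands the SE for log2 fold changes and the SD for counts.

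Of the 29 genes, 25 were called higher and 2 lower in the libraries labelled Setd8-LKO than in untreated WT, and 2 were not called. The background is high because the table was selected on this contrast: 84.6% of the 3807 tested genes were called, 50.7% higher and 33.9% lower, and the groups did not overlap for 86.2%, against 27 of the 29. Nothing is read from the number of called genes. The median log2 fold change of the 29 was 1.57, beside 1.19 over all tested genes, and 27 of 29 (93.1%) were positive beside 59.5%. With DESeq2 size factors computed over the listed genes, which moved the median log2 fold change of all tested genes by -0.82, 9 of the 29 were called higher and 2 lower, and over all genes 816 were called higher and 1460 lower. No member changed direction under that scaling. TMM factors over the listed genes moved the median of all tested genes by -0.0073. In whole liver RNA, fewer cells of a type and less RNA per cell cannot be told apart.

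**Figure D1:**
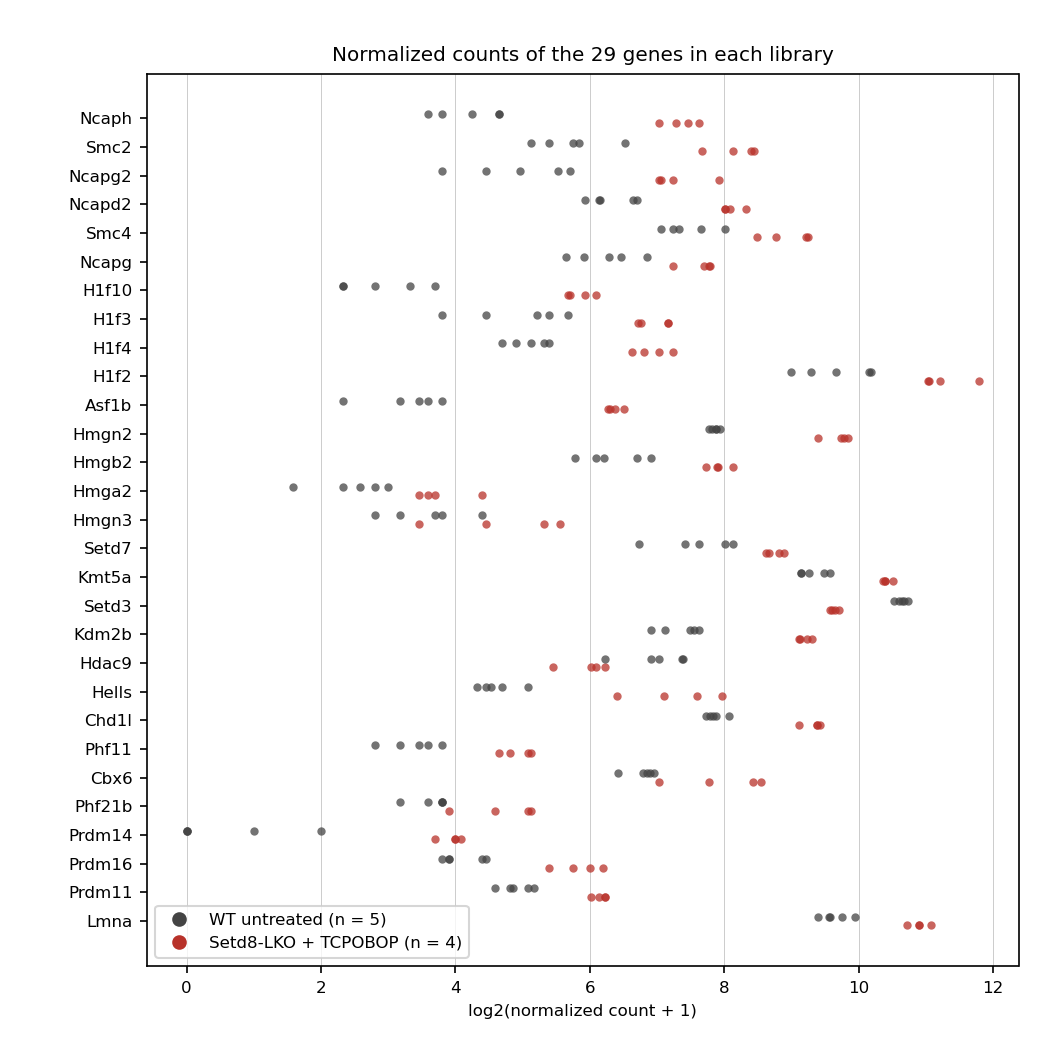
Normalized counts of the 29 genes on a log2(count + 1) axis, 1 point per library, for untreated WT (5 grey points) and TCPOBOP-treated Setd8-LKO livers (4 red points), grouped by role from condensin at the top to Lmna at the bottom. The groups are apart for 27 genes, and touch or cross for Hmgn3 and Hdac9.

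Kmt5a, the gene targeted in the knockout, had 613, 567, 761, 563 and 715 normalized counts in the 5 untreated WT libraries and 1341, 1465, 1338 and 1313 in the 4 libraries labelled Setd8-LKO. Every Setd8-LKO library was above every WT library, with a log2 fold change of 1.08 ± 0.14 (SE, adjusted p = 0.000445). The count sums reads over the entire gene and cannot show the loss of a single floxed exon, so it does not check the genotype. Kmt5a runs from 124439930 to 124462308 on the plus strand of chromosome 5 (mm10).

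All 6 listed condensin subunits were called higher, beside 50.7% of all tested genes, in a table selected on this contrast. Condensin genes outside the table have no values here. Ncaph, the kleisin subunit of condensin I, had 13, 11, 24, 24 and 18 counts in untreated WT and 176, 197, 154 and 129 in Setd8-LKO, a log2 fold change of 3.19 ± 0.27 (adjusted p = 3.23e-05). The groups were far apart, and the lowest Setd8-LKO value was above 5 times the highest WT value. Smc2, an ATPase shared by both condensin complexes, had 53, 41, 56, 34 and 91 counts in WT and 337, 348, 278 and 203 in Setd8-LKO (log2 fold change 2.41 ± 0.29, adjusted p = 0.000319). Ncapg2, a HEAT repeat subunit of condensin II, had 21, 13, 45, 30 and 51 counts in WT and 150, 241, 129 and 133 in Setd8-LKO (2.34 ± 0.38, adjusted p = 0.00209). In all 3 genes the run A libraries of untreated WT included the highest WT value, and the log2 ratio within run A, which holds 1 Setd8-LKO library, was smaller than within run B: 2.50 and 3.76 for Ncaph, 1.73 and 2.75 for Smc2, and 1.64 and 3.28 for Ncapg2. The condensin I subunits Ncapd2 and Ncapg rose by 1.78 ± 0.20 and 1.35 ± 0.26, and Smc4, the partner ATPase of Smc2, by 1.47 ± 0.24, each with groups that did not overlap. The median of the 6 was 2.06 on the log2 scale. Reads of Ncapg and of Lcorl on the other strand overlap in exons, and whether counting used strand is not given in the sources used here.

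Promoters of the 31 genes were compared with motifs known from genes of the cell cycle. The promoter sequences from RefSeq (GRCm38.p6, 250 bases before to 50 after the start) were matched for 27 of the 31 genes, with 35 promoters. They were searched on both strands for the CCAAT box (CCAAT), the CHR element (TTTGAA) and the E2F site (TTTCCCGC, TTTCGCGC, TTTGCCGC or TTTGGCGC), and none of these words holds another. The CCAAT box was in 21 of the 35 promoters (60%), beside 37.4% of all 32851 promoters of the same length, the CHR letters in 8 (22.9%), beside 17.9%, and the E2F letters in 4 (11.4%), beside 2.26%. The 4 promoters with E2F letters were those of Hells and of the condensin genes Ncapd2, Ncapg and Ncapg2. Some genes have more than 1 promoter, and counted by gene the CCAAT box was in 17 of 27. The share over all genes was not counted. Promoter windows of Setd3 and of Kdm2b overlap, so that the same box enters the count per promoter more than once. The CCAAT box was also in the promoters of Setd3, which fell. The CHR share is near that of all promoters, and its letters were also in a promoter of Hdac9, the other gene that fell. These are matches of letters and not measured sites. Of the 3 condensin promoters that hold both CHR and E2F letters (Ncapd2, Ncapg and Ncapg2), those of Ncapd2, a subunit of condensin I, and Ncapg2, a subunit of condensin II, are printed as examples, with the matches to these motifs on either strand in capitals. Ncapd2 and Ncapg also have CCAAT boxes, and Ncapg2 has none.
Ncapd2 promoter, chr6:125191537-125191836, minus strand: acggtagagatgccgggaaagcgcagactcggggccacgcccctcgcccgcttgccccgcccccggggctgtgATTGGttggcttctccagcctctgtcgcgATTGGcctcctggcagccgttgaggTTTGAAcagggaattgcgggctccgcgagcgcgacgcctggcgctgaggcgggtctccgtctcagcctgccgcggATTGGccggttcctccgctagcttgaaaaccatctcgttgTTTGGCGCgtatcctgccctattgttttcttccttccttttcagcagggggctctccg
Ncapg2 promoter, chr12:116405186-116405485, plus strand: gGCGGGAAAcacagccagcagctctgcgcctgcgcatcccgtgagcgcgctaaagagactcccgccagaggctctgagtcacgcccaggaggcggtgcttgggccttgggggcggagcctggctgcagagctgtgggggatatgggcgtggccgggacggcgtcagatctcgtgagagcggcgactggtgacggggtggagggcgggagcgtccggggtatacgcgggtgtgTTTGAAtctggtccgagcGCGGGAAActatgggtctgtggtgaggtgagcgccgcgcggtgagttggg

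All 4 listed linker histones were called higher, beside 50.7% of all tested genes. H1f2, the most abundant of them, had 1144, 1168, 627, 810 and 509 counts in untreated WT and 2115, 2087, 3539 and 2377 in Setd8-LKO, a log2 fold change of 1.57 ± 0.27 (adjusted p = 0.00372). The groups did not overlap, but the 2 untreated livers of run B (1144 and 1168) were above the 3 of run A (509 to 810), and the log2 ratio was 1.87 within run A and 1.16 within run B. H1f10, a replication-independent H1 variant, had 6, 4, 12, 4 and 9 counts in WT and 60, 51, 67 and 50 in Setd8-LKO (2.97 ± 0.33, adjusted p = 0.000187). H1f3 had 41, 50, 21, 36 and 13 counts against 108, 104, 142 and 142 (1.94 ± 0.34, adjusted p = 0.00383). H1f4 rose from 33.6 ± 6.69 (SD, n = 5) to 122 ± 22.6 (n = 4), a log2 fold change of 1.85 ± 0.22. The 4 variants started from levels that differed widely: per kilobase of exon, H1f2 had 546 normalized counts in untreated WT, H1f4 17.4, H1f10 5.75 and H1f3 4.34. H1f4 shares exon sequence with Hist1h2be on the same strand, and H1 genes are similar to each other, so the split of reads among them is uncertain. The messengers of replication-dependent histone genes mostly end in a stem-loop in place of a poly(A) tail, and how RNA was selected for the libraries is not given in the sources used here. Core histone genes carry newer symbols (H4c1, H3c6 and others) and are outside the naming rule. A list of 7 such genes was drawn from the table after the values were seen. All 7 rose, beside 50.7% of all tested genes, in a table selected on this contrast, so nothing is read from this number. Their median was 1.74 on the log2 scale. Counts were low, with untreated WT means from 3.4 (H3c6) to 10.2 (H4c3), and 29.4 for H4c9.

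The promoters of H1f2, H1f3 and H1f4 are shown because these neighbours on chromosome 13 rose together and share the H1 box (AAACACA), an element known from H1 genes that lies before a CCAAT box in each. The AAACACA letters were in 5 of the 35 promoters (14.3%), beside 7.18% of all promoters, and not in that of H1f10. Capitals mark the letters of the H1 box, the CCAAT box and the CHR element on either strand.
H1f2 promoter, chr13:23738557-23738856, plus strand: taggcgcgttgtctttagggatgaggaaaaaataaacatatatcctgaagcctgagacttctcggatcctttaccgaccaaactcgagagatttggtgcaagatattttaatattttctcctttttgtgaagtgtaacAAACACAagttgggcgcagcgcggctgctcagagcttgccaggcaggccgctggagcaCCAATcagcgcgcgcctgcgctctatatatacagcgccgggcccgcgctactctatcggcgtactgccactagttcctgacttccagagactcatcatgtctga
H1f3 promoter, chr13:23554782-23555081, plus strand: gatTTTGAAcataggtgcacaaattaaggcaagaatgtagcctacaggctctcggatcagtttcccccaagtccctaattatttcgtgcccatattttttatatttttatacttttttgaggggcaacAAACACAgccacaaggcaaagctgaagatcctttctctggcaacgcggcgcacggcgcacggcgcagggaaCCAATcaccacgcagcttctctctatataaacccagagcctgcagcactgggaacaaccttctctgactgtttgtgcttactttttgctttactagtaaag
H1f4 promoter, chr13:23622509-23622808, minus strand: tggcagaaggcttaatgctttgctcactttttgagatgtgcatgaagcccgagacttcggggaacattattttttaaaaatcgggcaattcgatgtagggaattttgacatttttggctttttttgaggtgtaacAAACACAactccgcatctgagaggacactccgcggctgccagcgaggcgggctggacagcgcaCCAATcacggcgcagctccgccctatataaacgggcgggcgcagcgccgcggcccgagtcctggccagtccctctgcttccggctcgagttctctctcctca

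Asf1b, the chaperone that hands newly made histones H3 and H4 to the replication machinery, had 4, 8, 11, 10 and 13 counts in untreated WT and 78, 90, 82 and 76 in Setd8-LKO. The log2 fold change was 3.11 ± 0.29 (adjusted p = 5.96e-05), with all 4 Setd8-LKO libraries close to each other. Hells, a helicase of the SNF2 family needed for DNA methylation, had 33, 21, 19, 22 and 25 counts in WT and 136, 250, 84 and 192 in Setd8-LKO (2.78 ± 0.33, adjusted p = 0.000261). The Setd8-LKO libraries spread almost 3-fold among themselves, but the lowest was above the highest WT library. The Asf1b promoter is shown for its 4 CCAAT boxes, read as ATTGG on the printed strand, and for the TTTGAA just before its start.
Asf1b promoter, chr8:83955444-83955743, plus strand: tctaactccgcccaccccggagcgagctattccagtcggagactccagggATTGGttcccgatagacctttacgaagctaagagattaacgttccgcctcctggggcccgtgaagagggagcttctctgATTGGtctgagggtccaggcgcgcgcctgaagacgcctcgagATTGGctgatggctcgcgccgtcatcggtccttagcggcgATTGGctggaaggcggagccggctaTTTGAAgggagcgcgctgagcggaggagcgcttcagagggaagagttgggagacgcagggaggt

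The high mobility group genes encode abundant non-histone proteins that bend DNA or loosen nucleosomes. Hmgn2 had 224, 218, 233, 234 and 245 counts in WT and 881, 852, 674 and 918 in Setd8-LKO, a log2 fold change of 1.85 ± 0.14 (adjusted p = 1.70e-05) with a narrow spread in both groups. Hmgb2 had 67, 54, 103, 73 and 119 counts against 237, 280, 211 and 239 (1.54 ± 0.24, adjusted p = 0.00177). Hmga2, an oncofetal member of the family, stayed near the limit of detection, with 6, 5, 2, 4 and 7 counts against 11, 20, 10 and 12. Its log2 fold change of 1.43 ± 0.37 (adjusted p = 0.0444) passed in only 1 of the 9 fits that left out a library, the fit without Setd8-LKO library 3, with adjusted p up to 0.193 without Setd8-LKO library 2. Hmgn3 was not called (1.25 ± 0.47, adjusted p = 0.332): its Setd8-LKO values of 46, 39, 10 and 21 overlapped the WT values of 8, 6, 20, 12 and 13. Without Setd8-LKO library 3, Hmgn3 was called, with an adjusted p of 0.0416. Genes of this family have processed copies elsewhere in the genome, with which reads may be shared.

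Among the SET domain methyltransferases and lysine demethylases, 2 genes rose besides Kmt5a and 1 fell. Kdm2b, a demethylase that also recruits a Polycomb complex to CpG islands, had 138, 119, 187, 178 and 197 counts in WT and 599, 551, 630 and 560 in Setd8-LKO (1.83 ± 0.18, adjusted p = 7.31e-05), and its reads overlap those of Rnf34 on the other strand. Setd7 had 170, 105, 278, 258 and 197 counts against 449, 392, 473 and 407 (1.09 ± 0.25, adjusted p = 0.0233), with groups that did not overlap. Setd7 was called in 2 of the 9 fits that left out a library, those without untreated WT library 3 and without untreated WT library 4, and in the other fits its log2 fold change fell to 0.93 without WT library 2 or its adjusted p rose to as much as 0.0709 without Setd8-LKO library 1. Setd3, which methylates a histidine of actin, had 1556, 1701, 1606, 1473 and 1640 counts in WT and 799, 838, 760 and 779 in Setd8-LKO. It fell by 1.01 on the log2 scale with an SE of 0.12 (adjusted p = 0.000281), the groups being far apart beside their spread. Its size lay at the fold limit, so that the fits without Setd8-LKO library 3 or 4 or WT library 2 or 5 gave values down to -0.98 and no call, at adjusted p of 0.000803 to 0.00146.

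Hdac9, a class IIa histone deacetylase, was the other gene that fell. It had 167, 74, 165, 119 and 130 counts in untreated WT and 64, 67, 43 and 74 in Setd8-LKO. The highest Setd8-LKO library equalled the lowest WT library, WT 2. The log2 fold change was -1.08 ± 0.27 (adjusted p = 0.0398), and the gene was called in 1 of the 9 fits that left out a library, the fit without WT 2, with adjusted p of up to 0.110 without Setd8-LKO library 1.

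Of the remodellers and readers of histone marks, Chd1l, Cbx6 and Phf11 rose and Phf21b was not called. Chd1l, a remodeller recruited by poly(ADP-ribose) in DNA repair, had 221, 228, 212, 234 and 268 counts in WT and 554, 668, 690 and 667 in Setd8-LKO (1.47 ± 0.14, adjusted p = 6.33e-05). The groups were well apart, and the log2 ratios within the 2 runs, 1.48 in run A, differed little. Cbx6, a chromodomain subunit of Polycomb complex 1, had 123, 85, 118, 110 and 115 counts against 375, 343, 129 and 218 (1.27 ± 0.29, adjusted p = 0.0210). Setd8-LKO libraries 3 and 4 of Cbx6 were the closest to WT, and the call was lost without Setd8-LKO library 1 or 2 or without WT library 2, 4 or 5, at adjusted p of 0.0507 to 0.0857. Cbx6 also shares exons with Npcd on the same strand. Phf11, annotated as a pseudogene and with near-identical copies, had 6 to 13 counts in WT and 24 to 34 in Setd8-LKO (1.57 ± 0.27). Phf21b (1.14 ± 0.32, adjusted p = 0.0732) had 8 to 13 counts in WT and 33, 23, 14 and 34 in Setd8-LKO, groups that did not overlap. It was called without Setd8-LKO library 3, at an adjusted p of 0.0128.

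All 3 listed PR domain zinc finger genes were called higher, beside 50.7% of all tested genes. Prdm14, known from pluripotent and primordial germ cells, had 0, 3, 1, 0 and 0 counts in untreated WT and 12, 16, 15 and 15 in Setd8-LKO, so that it was next to undetected in the first group and low in the second. Its fitted log2 fold change of 4.26 ± 0.59 (adjusted p = 0.000742) depends on the prior count. Prdm14 and Hmga2 passed the filter on low counts through the Setd8-LKO libraries only. Prdm16, a regulator of brown fat and stem cells, had 20, 13, 14, 21 and 14 counts in WT and 72, 63, 41 and 53 in Setd8-LKO (1.79 ± 0.26, adjusted p = 0.00103). Prdm11 had 28, 23, 27, 35 and 33 counts against 69, 74, 64 and 74 (1.27 ± 0.21, adjusted p = 0.00220).

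Lmna, which encodes Lamin A and Lamin C of the nuclear envelope, had 763, 859, 751, 989 and 673 counts in untreated WT and 1901, 1681, 1912 and 2163 in Setd8-LKO. All 4 Setd8-LKO libraries were above all 5 WT libraries, by 1.25 ± 0.15 on the log2 scale (adjusted p = 0.000311). Lmna was the only lamin or SUN gene in either table. Per kilobase of exon it ranked 3 of 31 genes in untreated WT (138 normalized counts), after H1f2 and Setd3 (264), and 2 of 29 in Setd8-LKO (328).

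**Figure D2:**
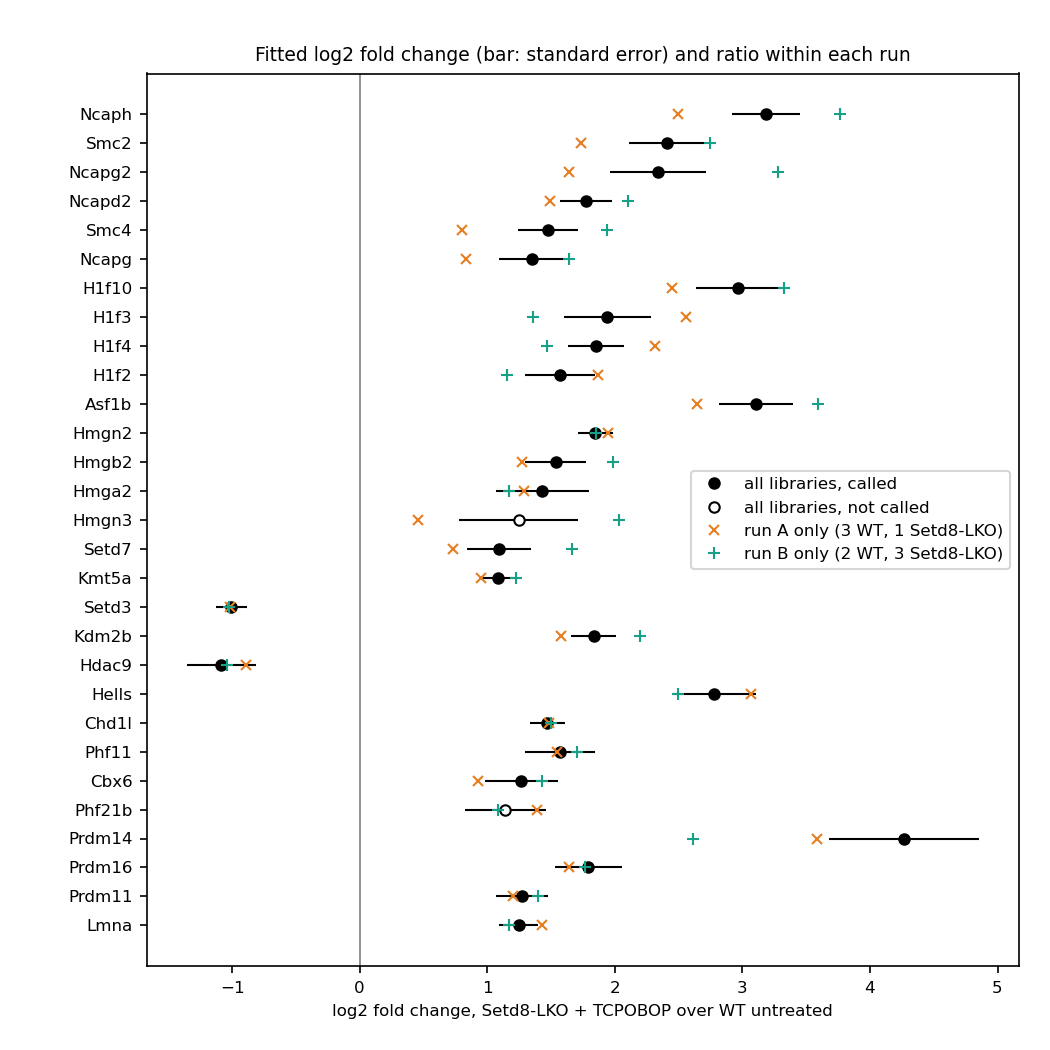
Fitted log2 fold change of each of the 29 genes in TCPOBOP-treated Setd8-LKO over untreated WT livers (points, with SE bars; open points were not called), with the ratio of group means within run A (crosses) and run B (plus signs). Setd3 and Hdac9 are below 0, all other genes above, in both runs; for condensin genes the run B value is the larger, for H1f2, H1f3 and H1f4 the run A value.

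The table for TCPOBOP in WT livers held 4 of the genes, 2 of which were called, beside 67.5% of its 679 tested genes (51.3% higher, 16.2% lower). Setd4, a SET domain methyltransferase, had 234, 182, 248, 227 and 257 counts in untreated and 1344, 909, 1321, 1647 and 503 in TCPOBOP-treated WT livers. Even the lowest treated liver, replicate 5, was above all untreated livers, and the log2 fold change was 2.32 ± 0.29 (adjusted p = 0.00216) and was called in all 10 fits that left out a library. With DESeq2 size factors or TMM factors over the listed genes the Setd4 call was lost, at 1.13 ± 0.28 (adjusted p = 0.321) and 1.32 ± 0.29 (adjusted p = 0.128). Setdb1, the H3K9 methyltransferase of heterochromatin, had 598, 599, 539, 619 and 597 counts against 1054, 1197, 827, 1380 and 1491 (1.01 ± 0.17, adjusted p = 0.0166). Its groups did not overlap, as in 81.7% of the tested genes, but its exons overlap those of Cers2 on the other strand. The Setdb1 call was lost in 6 of the 10 fits, those without WT library 1, 3 or 5 or treated library 2, 4 or 5 (adjusted p 0.0501 to 0.0541), and with the DESeq2 size factors over the listed genes, which moved the median of all tested genes by -1.17, its log2 fold change became -0.16.

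Asf1b and Hells were listed in both comparisons, which share the untreated livers, so that their values can only be set side by side. No test was made between treated WT and treated Setd8-LKO livers. Asf1b had 28, 23, 22, 75 and 44 counts in TCPOBOP-treated WT livers, beside 4 to 13 in untreated WT and 76 to 90 in treated Setd8-LKO livers. It was not called for TCPOBOP in WT (2.01 ± 0.43, adjusted p = 0.0654), though the groups did not overlap. Hells had 67, 27, 63, 123 and 89 counts in treated WT livers, beside 19 to 33 and 84 to 250, and was not called (1.61 ± 0.36, adjusted p = 0.0998). Treated WT library 2, at 27, lay within the untreated range, and without it Hells was called at an adjusted p of 0.0133. The treated WT values of Asf1b split by run, at 22 to 28 in the livers of run A, all below the 44 and 75 of run B, and the log2 ratio was 1.04 within run A and 3.11 within run B. Setdb1 and Setd4 are not in the Setd8-LKO table, and the other 27 genes are not in the WT TCPOBOP table.

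**Figure D3:**
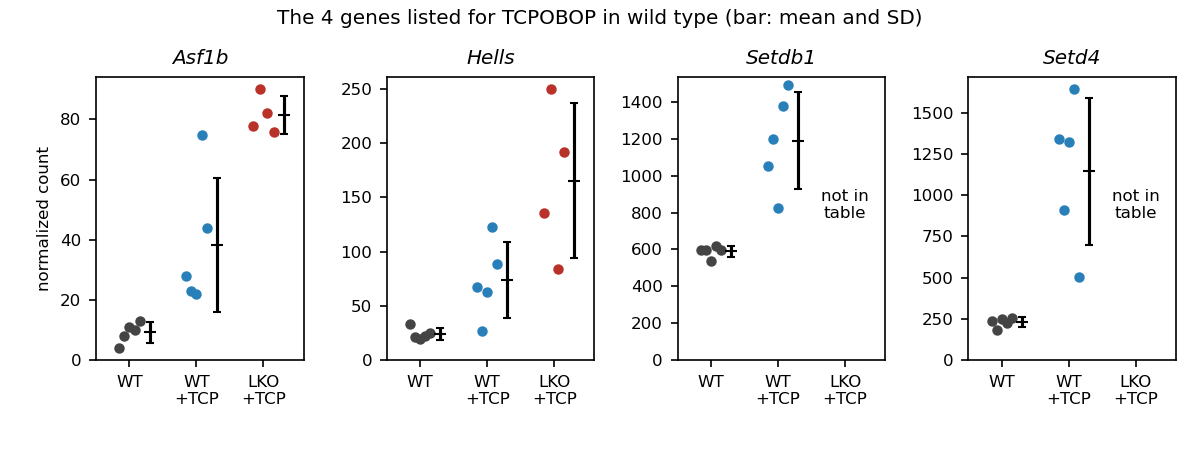
Normalized counts of Asf1b, Hells, Setdb1 and Setd4 in untreated WT (grey), TCPOBOP-treated WT (blue) and TCPOBOP-treated Setd8-LKO livers (red), 1 point per library, with the mean and SD beside each group. Asf1b and Hells are higher in treated Setd8-LKO than in treated WT livers by their means (81.5 beside 38.4 and 166 beside 73.8), with values that overlap for Hells.

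Other genes of these pathways were followed with 5 lists, where genes that were not listed have no values. Of all tested genes in the Setd8-LKO table, 50.7% were called higher and 33.9% lower. Of 15 regulators of cohesin and condensin, 5 were in the Setd8-LKO table, 4 of them higher and 1 lower. Top2a, the topoisomerase of mitotic chromosomes, went from 34.4 ± 18.9 to 661 ± 134 (SD) normalized counts (log2 fold change 4.26 ± 0.37), and Espl1, the separase that opens cohesin rings, from 8.6 ± 3.91 to 127 ± 34.1 (3.82 ± 0.33), whereas the securin gene Pttg1, the inhibitor of separase, fell by 1.14 on the log2 scale with an SE of 0.21. Of 17 heterochromatin and Polycomb genes only Uhrf1, which guides maintenance DNA methylation, was listed and it rose (3.81 ± 0.48). Of 12 chromatin assembly genes 3 were listed and 2 rose, Oip5 (2.68 ± 0.28) and Cenpa (1.73 ± 0.21), which load and form centromeric nucleosomes. None of 13 nuclear envelope genes was listed. Of 21 acetylation and methylation enzymes 2 were listed and both fell, the deacetylase genes Sirt3 (-1.22 ± 0.17) and Sirt7 (-1.02 ± 0.15). In the WT TCPOBOP table the first 3 lists had 1 listed gene each, of which Uhrf1 rose (3.07 ± 0.46), and Top2a (34.4 ± 18.9 and 98.2 ± 50.4 counts) and Chaf1b (43.4 ± 27.2 and 158 ± 54.5) were not called.

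Markers of several cell types and of proliferation moved with the Setd8-LKO group, and their part in the values above was not tested. The counts stand beside 50.7% of all tested genes called higher and 33.9% lower for Setd8-LKO. For TCPOBOP in WT these shares were 51.3% and 16.2%. Markers that were not listed have no values here. Of 18 proliferation genes 15 were listed and all 15 rose, their summed normalized counts going from 529 to 927 in untreated WT to 4701 to 7032 in Setd8-LKO livers, and in TCPOBOP-treated WT livers 8 were listed, 5 rose, and the sum over those 8 went from 348 to 592 to 879 to 2239. Of 8 hepatocyte genes 6 were listed and all 6 were lower in Setd8-LKO (sums 1129218 to 1834362 against 460331 to 654859), and this sum was the highest of all marker lists in every library. Of 6 cholangiocyte genes 5 rose (427 to 690 against 1627 to 7466), and of 8 stellate cell and fibroblast genes 4 were listed and rose (2071 to 3108 against 5103 to 11702). Of 9 macrophage genes 2 were listed and rose (83 to 298 against 410 to 632), and 1 endothelial gene of 6 rose. Of 6 neutrophil genes 2 were listed and none was called, of 6 B and plasma cell genes 1 rose and 1 fell, 1 of 4 erythroid genes fell, and none of 7 T and NK cell genes was listed. For TCPOBOP in WT livers, 1 stellate cell gene was lower, 1 hepatocyte and 1 macrophage gene were listed and not called, and no gene of the other cell type lists was listed.

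The lists of CTCF, Smc3 and H3K27ac peaks were compared at the promoters, where a peak was counted if it reached within 1000 bp of any annotated transcript start, between untreated WT and treated Setd8-LKO livers. With 1 list per group there is no spread between livers, and no test was made. The Setd8-LKO list of CTCF is longer as a whole, with 20905 peaks beside 5838, as is that of Smc3, with 21615 beside 13045, whereas H3K27ac has 27752 beside 27983. CTCF peaks were at the promoters of 3 of the 31 genes in WT and 18 in Setd8-LKO livers, beside 6.81% and 43.2% of 21938 protein coding genes. Peaks without overlap in the WT list, called gained here, were at 17 of the 31 (54.8%), beside 39% of protein coding genes and 42.6% of the genes called higher in the Setd8-LKO table. Smc3 peaks were at 8 genes in WT and 26 in Setd8-LKO livers, beside 17.2% and 58.2% of protein coding genes. Of the genes called higher, 65.7% had an Smc3 peak in the Setd8-LKO list. Gained Smc3 peaks were at 22 (71%), beside 46.2% of protein coding genes and 54.5% of the genes called higher. H3K27ac peaks were at 24 and 26 genes, beside 54.5% and 58.8%, with gained peaks at 6 (19.4%), beside 8.5% of protein coding genes and 15.3% of the genes called higher. The 31 genes have a median of 6 annotated transcript starts, beside 3 for protein coding genes, and thus more windows in which a peak can fall; the part of this in the shares was not tested.

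**Figure D4:**
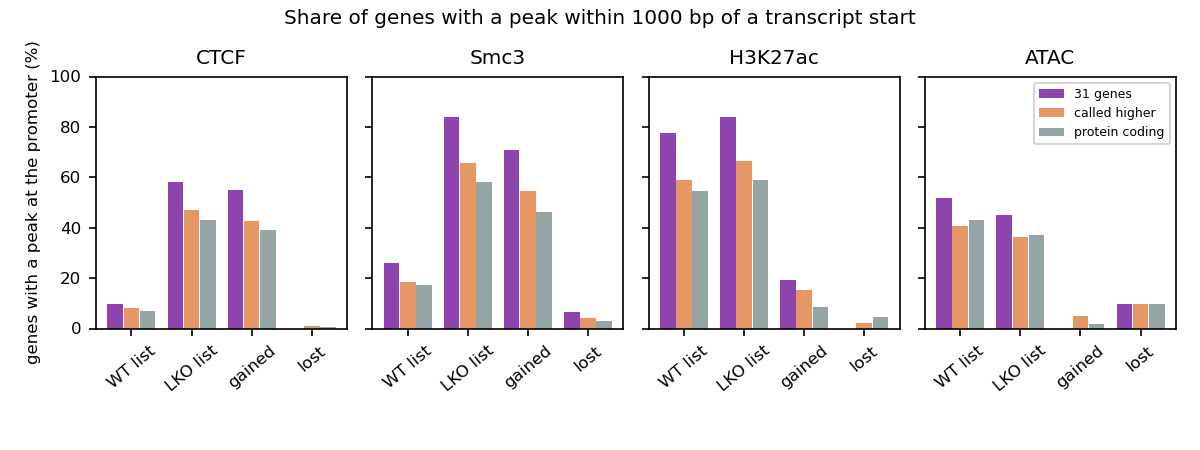
Percent of genes with a peak within 1000 bp of a transcript start, for the 31 genes (purple), the genes called higher in the Setd8-LKO table (orange) and all protein coding genes (grey), in the WT list, in the Setd8-LKO list, and as gained or lost peaks of CTCF, Smc3, H3K27ac and ATAC. The purple bars are the tallest in both lists of all 4 assays, and CTCF and Smc3 shares are higher in the Setd8-LKO lists in all 3 sets of genes.

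The gained CTCF peaks with the highest fold enrichment over input were at Setd7 (28.0, chr3:51560950-51561567), H1f10 (27.6, chr6:87980315-87980646) and Prdm16 (21.3, chr4:154635602-154636431). All 3 genes were called higher. The 3 genes with a CTCF peak in both lists were Asf1b, Chd1l and Kdm2b. At Chd1l the enrichment was 8.0 in WT and 103 in Setd8-LKO livers, and at Asf1b it was 12.1 and 82.0. Values of this kind were common: among protein coding genes with a CTCF peak at the promoter in both lists, the strongest peak was higher in Setd8-LKO for 96%, with a median ratio of 4.85. At Kdm2b, whose many start sites held 8 CTCF peaks in the Setd8-LKO list, the peak found in both lists went from 16.7 to 21.7.

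Most CTCF peaks at these genes lay away from the known CTCF consensus. Within 100 bp of the summit, a match to the 12-letter consensus with at most 1 mismatch was found for 2 of the 3 peaks of the WT list and for 5 of the 40 peaks of the Setd8-LKO list (12.5%), beside 69% and 21.6% of all peaks in these lists. Among gained peaks it was 4 of 37 (10.8%), beside 14% of all gained peaks. The matches are printed below, with the matching letters in capitals, for the genes that have peaks in both lists (Chd1l and Kdm2b) and for the lamin and condensin genes whose gained peak holds a match. At Chd1l the same letters lie under the WT and the Setd8-LKO peak. The Kdm2b match was found for the WT peak only, and within 100 bp of the Setd8-LKO summit the best match had 2 mismatches.
Chd1l CTCF peak, chr3:97610199-97610258, plus strand: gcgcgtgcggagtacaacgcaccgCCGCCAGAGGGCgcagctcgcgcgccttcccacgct
Kdm2b CTCF peak, chr5:122881391-122881450, plus strand: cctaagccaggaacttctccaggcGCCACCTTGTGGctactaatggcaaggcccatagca
Lmna CTCF peak, chr3:88483754-88483813, plus strand: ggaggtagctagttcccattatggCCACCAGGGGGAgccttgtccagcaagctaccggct
Ncapd2 CTCF peak, chr6:125191519-125191578, plus strand: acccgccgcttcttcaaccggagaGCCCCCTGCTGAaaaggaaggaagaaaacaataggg

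Smc3 was gained most strongly, by fold enrichment, at Prdm16 (110, chr4:154634612-154636597), Hmga2 (80.7, chr10:120474716-120477672) and Kdm2b (77.8, chr5:122951541-122952782). Lost Smc3 peaks were at Phf21b (17.5 in WT, chr15:84803695-84804036) and Prdm16 (8.75, chr4:154527635-154527876), in each case at another start site than the gained peaks. None of the 6 condensin promoters had an Smc3 peak in the WT list, beside 17.2% of protein coding genes with such a peak. All 6 had a gained peak, beside 46.2% of protein coding genes, 54.5% of the genes called higher and 22 of the 31 genes. The fold enrichment ran from 29.5 at Ncaph to 74.6 at Smc4. CTCF peaks were gained at 3 of the 6 (Ncapd2, Ncapg and Smc4), beside 39% of protein coding genes. Where both lists had a peak, at 8 of the 31 genes, the strongest peak of each list was compared, at whichever start it lay. That of Setd8-LKO was higher at all 8, beside 97.2% of protein coding genes with peaks in both lists. The values are thus not always of the same site, and WT and Setd8-LKO peaks overlapped at 6 of the genes. At Kdm2b the overlapping peak had 13.6 in WT and 13.75 in Setd8-LKO, and the stronger Setd8-LKO peak lay at another start. The median ratio was 6.26 at the 8 genes and 6.52 at protein coding genes. CTCF and Smc3 were both gained at 14 of the 31 genes, among them Kmt5a and Lmna. The share of protein coding genes that gained both was not counted, so nothing is read from this number. Taken singly, gained CTCF and Smc3 peaks were at 39% and 46.2% of protein coding genes.

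H3K27ac was gained at H1f10 (25.3, chr6:87980448-87981961), where the WT list had no peak, at Prdm16 (13.9, chr4:154636929-154637947), and, at the same fold enrichment of 11.03, at Hdac9 (chr12:34906669-34906939) and Phf21b (chr15:84854755-84855417). Hdac9 had gained H3K27ac and Smc3 peaks (40.5 for Smc3) and lower RNA. No H3K27ac peak was lost at any of the 31 genes, beside 4.39% of protein coding genes with a lost peak. At 24 genes with peaks in both lists, the strongest peak was higher in Setd8-LKO at 17 (70.8%), beside 51.9% of protein coding genes and 74.2% of the genes called higher, so that the share is near that of other genes with higher RNA. For the condensin genes the strongest H3K27ac peak went from 11.7 to 23.2 at Ncaph, from 14.6 to 29.2 at Ncapg2, from 14.3 to 28.9 at Ncapg, from 25.8 to 39.4 at Smc4 and from 26.3 to 34.6 at Smc2, and was lower, 20.1 and 11.9, at Ncapd2. At Lmna it was 50.6 and 51.0, and at Kmt5a 45.7 and 50.6.

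**Figure D5:**
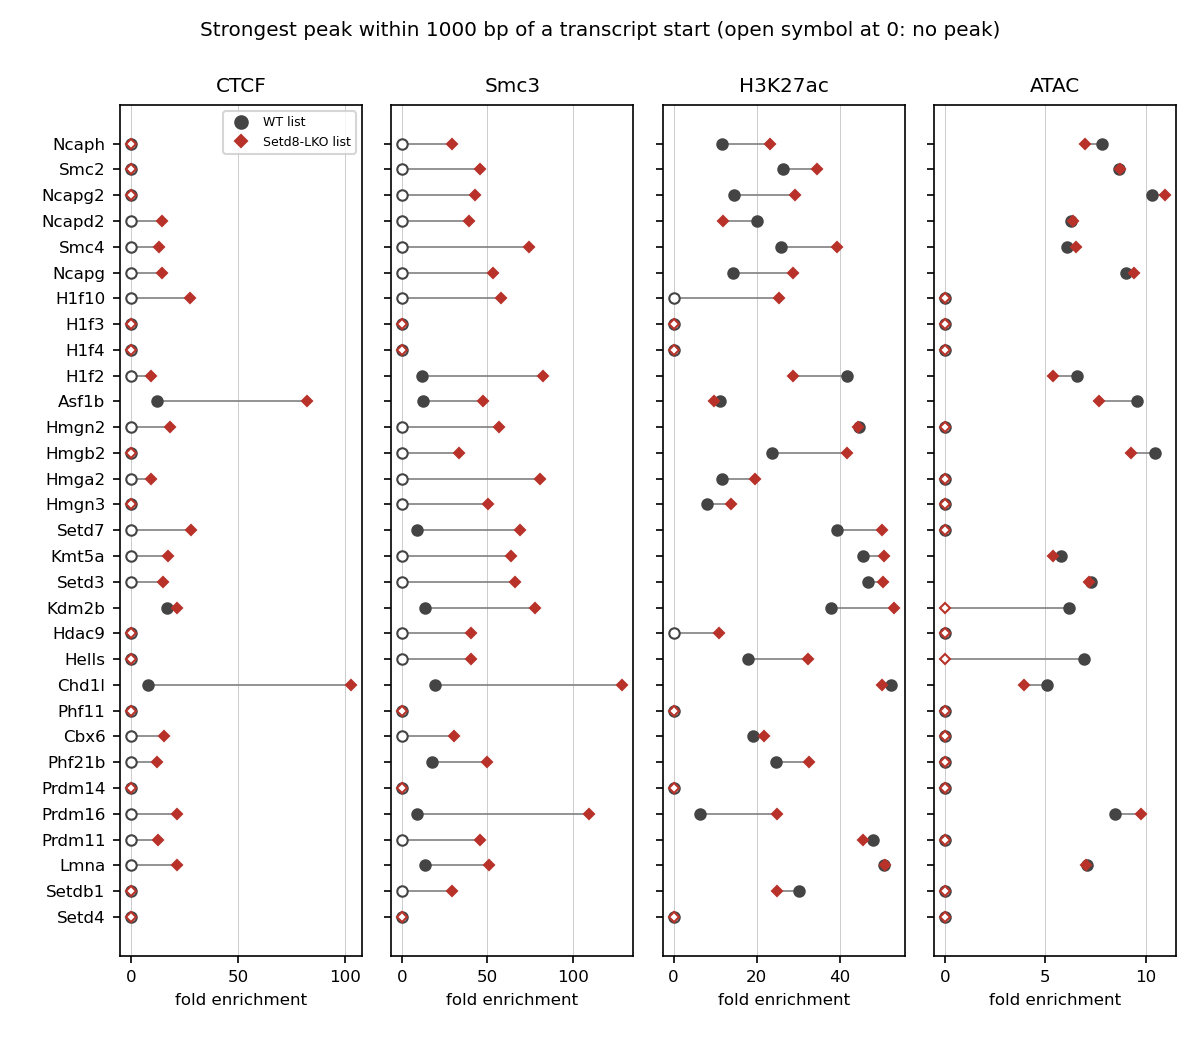
Fold enrichment over background, as given in the peak lists, of the strongest peak within 1000 bp of a transcript start of each of the 31 genes, for untreated WT (grey circles) and TCPOBOP-treated Setd8-LKO livers (red diamonds), by assay; open symbols at 0 have no peak. The red diamonds lie to the right of the grey circles at each gene with CTCF or Smc3 peaks, while H3K27ac and ATAC values shift in both directions.

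Accessible chromatin by ATAC-seq was listed at 16 of the 31 genes in WT and 14 in Setd8-LKO livers, beside 43.1% and 37% of protein coding genes. No gene had a gained ATAC peak, and 3 (Hells, Kdm2b and Lmna) had a lost peak, 9.68% beside 9.86%. All 6 condensin promoters had an ATAC peak in both lists. H1f3, H1f4, Phf11, Prdm14 and Setd4 had no peak in any of the 8 lists.

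Lamin A/C islands, broad domains in contact with the lamina, overlapped the bodies of 3 of the 31 genes in both lists (Hdac9, Ncapg2 and Smc2), beside 13% of protein coding genes in WT and 10.7% in Setd8-LKO livers. The largest, at Hdac9, ran over chr12:33780001-34620000 in WT, with an island score of 886, and over chr12:34000001-34620000 in Setd8-LKO livers, with a score of 235, covering 65.8% of the gene in each. A second WT island at chr12:34660001-34880000, over another 25.3% of Hdac9, had no counterpart in the Setd8-LKO list. At Smc2 the island covered 100% of the gene in WT and 57.7% in Setd8-LKO livers, where it began past the annotated gene start. At Ncapg2 the island covered 100% of the gene in both lists. H4K20me3 islands, a mark of constitutive heterochromatin, overlapped Hdac9 in the WT list and Ncapg in the Setd8-LKO list, 1 gene in each, beside 11.1% and 11.4% of protein coding genes.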

How the data were processed

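RNA values were taken from 2 deposited tables. The authors mapped reads to mm10 with HISAT2 and counted genes with metaseqR; the raw counts per library were deposited together with normalized counts, a score rounded to whole numbers that follows the raw count times 1 factor per library. The tables hold only genes that the authors selected at a fold and significance limit. Their fold changes and p-values were not used, nor were 114 per-library columns of transformed values. The authors' gc_content column, in percent, was read and gave no result printed here. Peak lists were deposited with fold enrichment (a ratio) and −log10 p, as called by MACS2 2.2.7.1, and islands with a SICER score, with 1 list per group. ChIP-seq and CUT&Tag reads had been reduced to equal totals, and for ATAC-seq this is not given in the sources used here. How replicate libraries were joined for them is not given in the sources used here.

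The 31 genes, their roles, the lists and the rules for naming genes (the 3 largest changes per role, all that fell, all listed for WT TCPOBOP, and the strongest gained or lost peaks) were chosen with earlier results of these data known. edgeR 4.0.16 (R 4.3.3) fitted raw counts with the authors' factors as offsets, which differed between the tables by at most 0.000794% in the untreated libraries. Genes with at least 10 raw counts in at least 4 (Setd8-LKO) or 5 (WT) libraries were tested, and p-values were adjusted by Benjamini-Hochberg over the 55450 genes of GENCODE M21, since unlisted genes were tested by the authors too. Per the study's methods the RNA libraries are biological replicates collected on the same date, and p-values measure the spread between them. No 2 libraries correlated above 0.989 over log2 counts. In simulated data with the library sizes of the Setd8-LKO comparison (3774 genes), 86 of 100 genes changed by 1.5 on the log2 scale were found. Of 100 changed by 2, 96 were found, with 0 unchanged genes called. These counts hold for the simulated data only, since 84.6% of the tested genes of the table itself were called. How often unchanged genes are called in the livers was not tested. Alternatives were DESeq2 1.42.0 (factors and test), TMM, limma 3.58.1 on log2 values with a pseudocount of 1, no filter, adjustment over listed genes, no fold limit, run as a term, a replicate block and leaving out libraries. Peaks and sequences were read on GRCm38, the assembly of mm10, with pyfaidx 0.9.0.4.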

Additional observations from a re-analysis of the deposited data

Results flagged for a closer look

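Within the groups of 4 or 5 libraries, 58 groups of values were examined in the Setd8-LKO comparison and 6 in the WT TCPOBOP comparison for a library that stood far from the rest by Dixon's criterion, which chance meets in about 1 of 20 groups. It was met by 2 of them. Chd1l in Setd8-LKO library 1 had 554 normalized counts, below the 667 to 690 of the other 3 libraries and still above all untreated libraries. Setdb1 in untreated WT library 3 had 539 normalized counts, below the 597 to 619 of the others. No cause was tested for either.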

How the results depend on the processing

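Over the alternatives, 457 of 522 recomputed log2 fold changes of the 29 genes kept direction and call, 60 lost and 5 gained the call, and 0 turned. The 27 calls became 11 with DESeq2 size factors over the listed genes (9 higher, 2 lower), and 22 to 26 when a library was left out (2743 to 3223 over all genes, against 3221). In WT TCPOBOP, the 2 calls became 0 with DESeq2 size factors and with TMM factors over the listed genes, 4 with DESeq2 and with adjustment over the listed genes, 1 with limma and with run as a term, and 1 to 2 without a library, and the 458 calls over all genes became 260 with DESeq2 size factors (67 higher, 193 lower) and 260 with TMM (72 and 188), against 348 and 110, and 334 to 438 without a library. Setdb1 turned to -0.16 with DESeq2 size factors. The cause was not tested, beyond the shift of the median that both scalings make in the WT TCPOBOP comparison. In the Setd8-LKO comparison the median moved by -0.82 with DESeq2 size factors and by -0.0073 with TMM factors.

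The replicate numbers do not pair the libraries: deviations of same-numbered libraries correlated at -0.158 to 0.0652 in the Setd8-LKO comparison and -0.432 to 0.105 in the WT TCPOBOP comparison. With the replicate block, calls were 21 of 29 (2221 over all genes) and 1 of 4 (159 over all genes).

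For promoter peaks, a 500 bp window left 1 gene with a lost Smc3 peak in place of 2. A −log10 p of at least 20 gave 1 gained and 1 lost ATAC peak gene in place of 0 and 3. With overlap of at least 50% of both peaks, lost CTCF, Smc3 and H3K27ac peaks were at 3, 6 and 7 genes in place of 0, 2 and 0, kept CTCF and Smc3 peaks at 0 and 2 in place of 3 and 6, and a gained ATAC peak at 1. With no mismatch in the CTCF consensus, 0 peaks of the WT list and 0 of the Setd8-LKO list at these genes matched. With the transcript start inside the island, the H4K20me3 count of the WT list was 0. Prdm14 and Hmga2, with under 10 counts in every untreated library, are limited by depth.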
